A study of Homo sapiens with 10 samples.

Results

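The genes described here are 10 factors tied to the naive state of pluripotency or to the germline: PRDM14, TFAP2C, PRDM1, KLF4, KLF5, TFCP2L1, DPPA2, DPPA4, ZFP42 and NLRP7. They were taken by symbol from the 55841 Ensembl genes of a bulk RNA sequencing data set, and all 10 were found. RNA came from HES9, an embryonic stem cell line of human origin by its labels, grown in mTESR1 medium with matrigel. The general population, unsorted cells, was compared with HHH, cells sorted for the highest levels of the surface antigens EPCAM, GCTM2 and CD9. There were 5 libraries of each. The labels divide them into 2 batches, the first with 2 libraries per population and the second with 3. The general population was not depleted of HHH cells, so the comparison is of a whole culture with a fraction of it. It could also hold cells that the sort would remove.

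In the early embryo, the naive state is that of the epiblast before implantation, and the primed state is the later one that conventional human embryonic stem cells resemble. Part of the naive programme is used again by primordial germ cells, the founders of eggs and sperm, which in humans rely on SOX17, TFAP2C and PRDM1. The factors described here therefore serve in the control of pluripotency, in the germline, or in both.

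PRDM14, TFAP2C and PRDM1, which all act in primordial germ cells, were lower in HHH than in the general population. Of these, TFAP2C was called in neither batch by itself. PRDM1 had few counts and entered the test only through the general libraries. KLF4 had a lower mean in HHH and TFCP2L1 a higher one, and neither passed the test over all genes. DPPA2 and DPPA4 passed the test as higher in HHH when batch 2 was fitted by itself, DPPA4 at under 1.5-fold, and ZFP42, KLF5 and NLRP7 did not pass in any comparison. With both batches fitted together and batch as a term, no member was called higher in HHH. DPPA2 was called higher (edgeR adjusted p 0.0139) when libraries of the same replicate number were also paired, which leaves the unpaired libraries of batch 1 out of the difference.

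A gene was called when its adjusted p was under 0.05 and its fold change over 1.5, by edgeR's quasi-likelihood test with batch as a term. Of 23552 genes tested, 2.98% were called, 2.34% lower in HHH and 0.637% higher. Among the members 3 of 10 were called, all lower, of which PRDM1 passed the filter on low counts only through the general libraries. Without the limit on fold, 5.83% of all genes and the same 3 members passed. The median log2 fold change was 0.026 over the members and 0.016 over all genes tested. Total counts ran from 47242595 to 78503395 per library. For 3 counts, taken as the floor of detection, the level was 0.0460 to 0.0687 CPM (counts relative to the scaled library total), which covers counting error only. Small nuclear and nucleolar RNAs took 2.71% to 4.97% of the counts in batch 1 and 0.418% to 0.727% in batch 2. In batch 1 both HHH libraries had smaller totals than both general libraries. In a bulk sample, fewer cells that express a gene and less RNA per cell cannot be told apart.

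Counted per base of exon, the members spanned a wide range of levels. DPPA4 and ZFP42 were the most abundant, with mean levels over the 10 libraries of 123 and 84.1 RPKM (CPM per kilobase of exon), at the 98.3 and 97.5 percentiles of 22138 genes. PRDM14 followed with 23.3 RPKM, at percentile 90.6. DPPA2 had 3.43 RPKM and TFAP2C 1.52 RPKM. TFCP2L1 with 0.682 RPKM, KLF4 with 0.659, KLF5 with 0.307 and NLRP7 with 0.255 were low in rank, between percentiles 13.4 and 26.6. PRDM1 was the lowest, with 0.0351 RPKM at percentile 0.9.

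Promoter sequences of 8 members were taken from the RefSeq table used (GRCh38.p14). TFAP2C had no entry in that table, and no sequence of PRDM14 was taken from it. Those of PRDM1 are shown because it was called and has 2 annotated starts there, and those of DPPA2 and DPPA4 because the genes are neighbours on chromosome 3 and were the members that passed as higher in the fit of batch 2. Each line gives the 250 bases before the annotated start, 5′ to 3′ on the gene's strand. Capitals mark matches on either strand to GCCNNNGGC, a letter pattern of the AP-2 family to which TFAP2C belongs, or to CCACCC, a pattern of the KLF family.
PRDM1, first window, chr6:106086086-106086335, plus strand: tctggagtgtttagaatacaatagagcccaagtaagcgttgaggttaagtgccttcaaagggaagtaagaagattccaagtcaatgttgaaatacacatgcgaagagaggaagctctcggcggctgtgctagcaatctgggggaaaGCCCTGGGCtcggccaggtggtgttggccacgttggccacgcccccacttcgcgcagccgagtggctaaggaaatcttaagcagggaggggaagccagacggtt
PRDM1, second window, chr6:106098691-106098940, plus strand: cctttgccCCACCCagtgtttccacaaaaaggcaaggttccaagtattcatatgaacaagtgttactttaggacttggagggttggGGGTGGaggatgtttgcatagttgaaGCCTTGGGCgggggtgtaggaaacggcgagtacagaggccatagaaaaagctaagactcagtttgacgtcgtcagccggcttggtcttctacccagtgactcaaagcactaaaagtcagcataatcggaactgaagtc
DPPA2, chr3:109316518-109316767, minus strand: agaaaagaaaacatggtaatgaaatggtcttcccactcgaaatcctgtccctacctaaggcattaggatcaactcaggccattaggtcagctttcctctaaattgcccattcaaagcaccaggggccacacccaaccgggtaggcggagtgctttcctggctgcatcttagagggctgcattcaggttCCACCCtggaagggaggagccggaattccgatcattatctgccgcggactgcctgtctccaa
DPPA4, chr3:109337547-109337796, minus strand: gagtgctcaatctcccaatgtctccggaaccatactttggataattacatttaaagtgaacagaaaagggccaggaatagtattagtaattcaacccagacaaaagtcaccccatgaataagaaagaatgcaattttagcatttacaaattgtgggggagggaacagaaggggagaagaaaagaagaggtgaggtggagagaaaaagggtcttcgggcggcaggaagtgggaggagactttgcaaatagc

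Both PRDM1 windows held 1 AP-2 match, which starts 104 bases before the start in the first and 138 bases before it in the second. The KLF4 and ZFP42 windows also held 1 each, and the other member windows searched, which include none of PRDM14 or TFAP2C, held none. Among all 35116 windows of the same length, here with those of chromosome 8 included, 19.8% held the AP-2 pattern. The CCACCC pattern was found in DPPA2, ZFP42, NLRP7 and the second window of PRDM1, and in 31.3% of all windows. No member window that was searched matched ATGCAAAT, the octamer bound by POU factors such as OCT4 (1.63% of all windows). None matched GGTCTCTA, a core of the PRDM14 motif (0.478%). No match overlapped another. These are matches of letters and not sites of binding.

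PRDM14 encodes a PR domain protein that in human embryonic stem cells binds with OCT4 at regulatory sequences and that is needed for germ cell specification in the mouse. The gene (ENSG00000147596) lies on chromosome 8, 70051651 to 70071693 on the minus strand (GRCh38, as all coordinates of genes here, from GENCODE 44). The 2 general libraries of batch 1 had 39.9 and 44.4 CPM, and the HHH libraries 23.5 and 21.1 CPM. In batch 2 the general libraries had 89.7, 99.8 and 96.6 CPM, and the HHH libraries 42.7, 47.6 and 47.3 CPM. The populations thus did not overlap in either batch, although HHH of batch 2 reached the level of the general population of batch 1. Over both batches the means were 74.1 ± 29.4 CPM in general libraries against 36.5 ± 13.1 CPM in HHH (SD, n = 5 each). The log2 fold change was -1.0, with SE 0.072 (edgeR adjusted p 1.58e-06). Batch 1 alone gave -0.92 (edgeR adjusted p 0.0201) and batch 2 alone -1.06 (edgeR adjusted p 4.87e-06). In batch 1 alone the call was lost when HHH batch 1 replicate 2 was left out. In a fit to both batches with no batch term it was lost as well (edgeR adjusted p 0.255). In batch 2 the level was higher in both populations, and the small RNA shares given above moved with the batch. Their part in that difference was not tested.

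TFAP2C, an AP-2 factor of trophoblast, naive epiblast and primordial germ cells, was lower in HHH by a smaller amount. It is encoded on chromosome 20, 56629306 to 56639283 on the plus strand (ENSG00000087510). In batch 1 the general libraries had 3.89 and 4.07 CPM, and HHH 1.61 and 2.84 CPM. Batch 2 had 5.94, 7.21 and 6.19 CPM in general and 4.88, 4.65 and 4.38 CPM in HHH. All 5 HHH libraries were below every general library of their own batch. The means were 5.46 ± 1.43 CPM in general libraries against 3.67 ± 1.40 CPM in HHH (SD, n = 5 each), a difference of -0.61 on the log2 scale with SE 0.14 (edgeR adjusted p 0.0175). The fold, 1.53, was just over the limit of 1.5. Without general batch 2 replicate 2 the adjusted p was 0.0552. Leaving out replicate 2 of batch 1 from the general population gave -0.57 and from HHH -0.48, below the limit on fold. Within batch 1 the value was -0.85 (edgeR adjusted p 0.263), and within batch 2 it was -0.48 (edgeR adjusted p 0.0179), so neither batch gave a call by itself. With no batch term the edgeR adjusted p was 0.6.

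PRDM1, also named BLIMP1, is a repressor that specifies primordial germ cells together with TFAP2C and SOX17. It is encoded on chromosome 6, 105993463 to 106109939 on the plus strand (ENSG00000057657). Its counts were few: 34 and 18 in the general libraries of batch 1, and 8 and 5 in HHH. In batch 2 there were 27, 15 and 15 counts in general and 6, 4 and 6 in HHH. All 10 libraries were above the floor of 3 counts, and the highest HHH library, 0.172 CPM, was below the lowest general library, 0.250 CPM. The means were 0.361 ± 0.125 CPM in general libraries against 0.113 ± 0.0371 CPM in HHH (SD, n = 5 each). The log2 fold change was -1.67, with SE 0.32 (edgeR adjusted p 0.00545), or 3.19-fold lower. All general libraries but no HHH library had over 10 counts, the minimum count of the filter. PRDM1 thus entered the test only through the population where it was higher, and its call carries that limit. It was -1.52 in batch 1 alone (edgeR adjusted p 0.304) and -1.80 in batch 2 alone (edgeR adjusted p 0.015). In batch 2 alone the call was lost when HHH replicate 2 or general replicate 1 was left out. PRDM1 lies across ATG5 on the opposite strand, with no shared exon bases. Whether counting used the strand is not given in the sources used here.

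**Figure D1:**
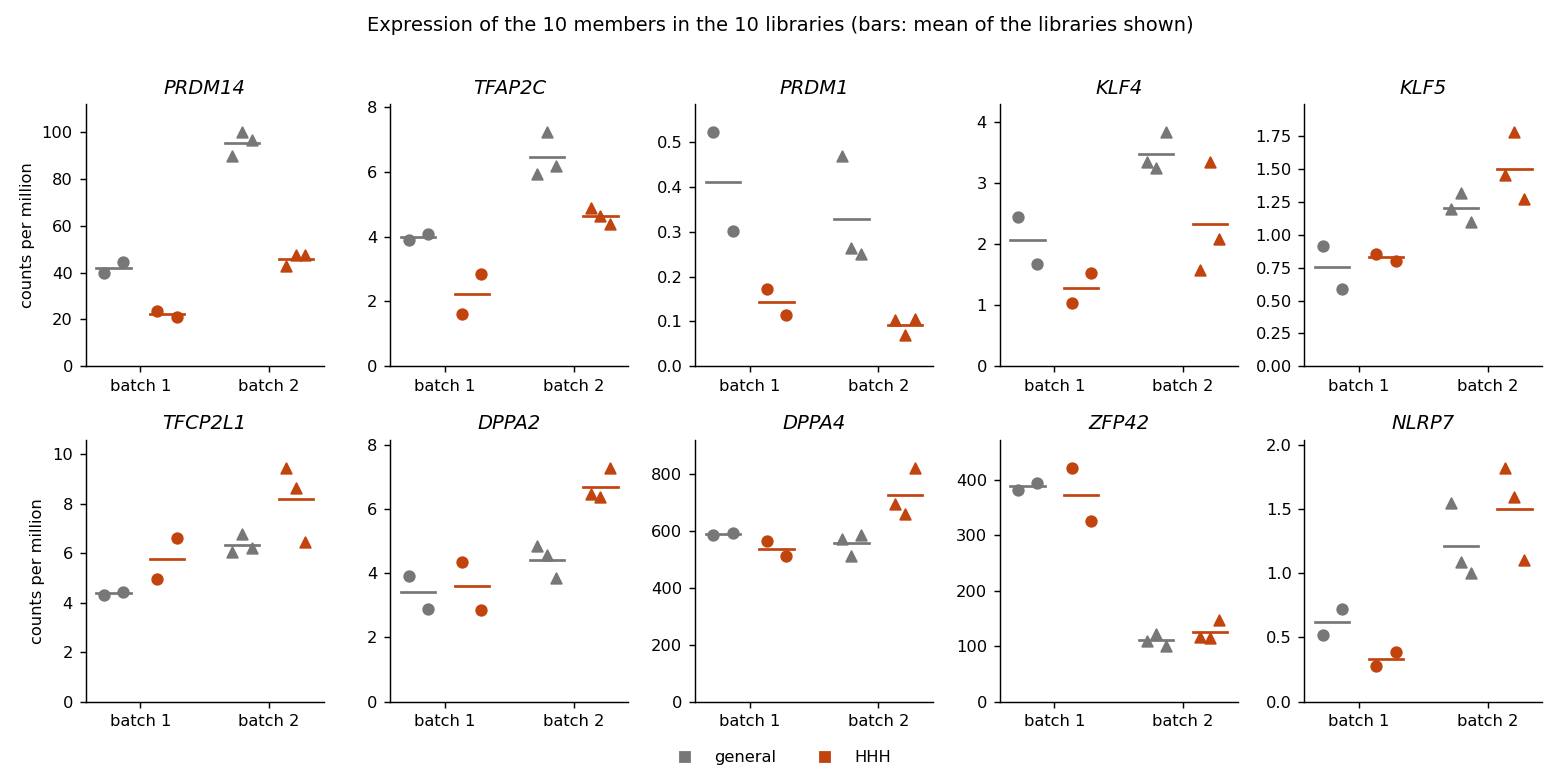
CPM (vertical axes, linear, starting at 0) of the 10 members in each library, with batch 1 as circles and batch 2 as triangles, general in grey and HHH in red, and a bar at the mean of each group. PRDM14, TFAP2C and PRDM1 show HHH below general in both batches without overlap, while ZFP42 differs between the batches, at 325 to 421 CPM in batch 1 and 100 to 147 CPM in batch 2.

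Populations that did not overlap within either batch, in the same direction, were found for PRDM14, TFAP2C and PRDM1, 3 of 10 members. Over all genes tested the share was 9.35%. PRDM1 was tested only because of its general libraries, so its place in this count carries that limit. DPPA4 did not overlap within either batch but changed direction between them.

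KLF4 and KLF5 are zinc finger factors that hold mouse cells in the naive state, and KLF4 is a classic reprogramming factor. KLF4 (ENSG00000136826, chromosome 9, 107484852 to 107490482, minus strand) had 2.45 and 1.68 CPM in the general libraries of batch 1 and 1.03 and 1.53 CPM in HHH. In batch 2 it had 3.35, 3.25 and 3.83 CPM in general and 1.58, 3.34 and 2.09 CPM in HHH. All HHH libraries were below the general mean of their batch, but HHH batch 2 replicate 2 lay within the general range. The means were 2.91 ± 0.851 and 1.91 ± 0.880 CPM (SD, n = 5 each), a difference of -0.62 on the log2 scale with SE 0.19 (edgeR adjusted p 0.0783). Without HHH batch 2 replicate 2 the log2 fold change was -0.82 and the edgeR adjusted p 0.0184, and DESeq2 on all libraries gave an adjusted p of 0.029, both past the limit on fold. KLF5 (ENSG00000102554, chromosome 13, 73054976 to 73077541, plus strand) had 0.587 to 1.32 CPM in general and 0.801 to 1.78 CPM in HHH. Its log2 fold change was 0.26, with SE 0.17 (edgeR adjusted p 0.403).

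Set against KLF5 within each library, KLF4 was lower in HHH. The ratio of KLF4 to KLF5 counts was 2.67 to 2.86 in general and 1.2 to 1.91 in HHH of batch 1. In batch 2 it was 2.47 to 3.48 in general and 1.08 to 1.87 in HHH. The groups did not overlap over all 10 libraries. The log2 difference was -0.91, and an exact two-sided permutation test within batches gave p = 0.0167, the smallest that its 120 arrangements allow, and 0.0417 after Benjamini-Hochberg adjustment over 5 ratios. Leaving out general batch 1 replicate 1, general batch 1 replicate 2 or general batch 2 replicate 3 gave exact permutation adjusted p-values of 0.0833, 0.0556 and 0.0833, over the threshold. Such a ratio does not depend on the scaling of the library. KLF4 and KLF5 each missed the edgeR test, and the members were chosen with earlier results of these data known. The ratio therefore describes these libraries and is not an independent test.

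The ratio of PRDM14 to ZFP42 counts also separated the populations within each batch. It was 0.105 to 0.113 in general and 0.0559 to 0.0650 in HHH of batch 1, and 0.815 to 0.961 in general and 0.321 to 0.418 in HHH of batch 2. The log2 difference was -1.08 (exact permutation p = 0.0167, adjusted p = 0.0417). Without general batch 1 replicate 1, or without general batch 2 replicate 3, the exact permutation adjusted p was 0.0833. The difference between batches in this ratio was larger than that between populations. The other 3 ratios tested did not pass. PRDM14 over TFAP2C had a log2 difference of -0.36 (exact permutation adjusted p = 0.146), PRDM1 over PRDM14 had -0.58 (exact permutation adjusted p = 0.139) and DPPA2 over DPPA4 had 0.21 (exact permutation adjusted p = 0.2). The first passed without HHH batch 1 replicate 2 (exact permutation adjusted p = 0.0278), and PRDM1 over PRDM14 passed without general batch 1 replicate 2 (exact permutation adjusted p = 0.0417).

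**Figure D2:**
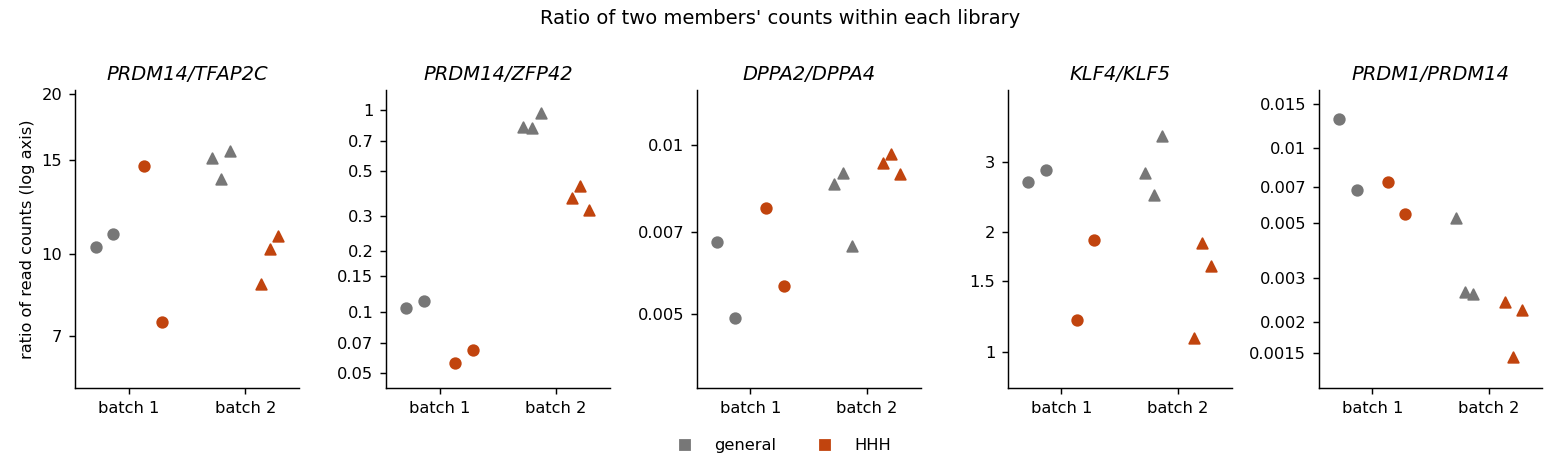
Ratios of the read counts of pairs of members (vertical log axes) in each library, with batch 1 as circles and batch 2 as triangles, general in grey and HHH in red. The KLF4 to KLF5 ratio is 2.47 or more in all general libraries and 1.91 or less in all HHH libraries, whereas the DPPA2 to DPPA4 ratio of HHH overlaps that of general in both batches.

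TFCP2L1, a CP2 family factor of the naive state and a target of LIF signalling in the mouse, had a higher mean in HHH. The gene (ENSG00000115112, chromosome 2, 121216587 to 121285202, minus strand) had 4.31 and 4.44 CPM in the general libraries of batch 1, and 4.95 and 6.62 CPM in HHH. Batch 2 had 6.06, 6.78 and 6.20 CPM in general and 9.45, 8.63 and 6.45 CPM in HHH. The populations overlapped in batch 2, where HHH replicate 3 was below general replicate 2. The means were 5.56 ± 1.11 CPM in general libraries against 7.22 ± 1.81 CPM in HHH (SD, n = 5 each), a difference of 0.38 on the log2 scale with SE 0.12 (edgeR adjusted p 0.0754). DESeq2 gave an adjusted p of 0.0309, and edgeR 0.0202 without HHH batch 2 replicate 3, with a fold under 1.5 in both.

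DPPA2 and DPPA4 form a complex that binds chromatin at promoters of developmental genes and keeps them open to activation. DPPA2 (ENSG00000163530, chromosome 3, 109293788 to 109316517) and DPPA4 (ENSG00000121570, chromosome 3, 109326144 to 109337546) are both on the minus strand, with windows shown above. DPPA2 had 3.92 and 2.9 CPM in the general libraries of batch 1 and 4.35 and 2.86 CPM in HHH, which overlapped. In batch 2 it had 4.86, 4.56 and 3.85 CPM in general and 6.46, 6.36 and 7.28 CPM in HHH, which did not. Over both batches the log2 fold change was 0.40, with SE 0.15 (edgeR adjusted p 0.133). With libraries of the same batch and replicate number paired as a block, it was 0.60 (edgeR adjusted p 0.0139), past both limits. General batch 1 replicate 1 (3.92 CPM) and HHH batch 1 replicate 3 (2.86 CPM) have no partner in that fit. They add nothing to its difference, although HHH was the lower of these libraries. Batch 2 alone gave 0.59 (edgeR adjusted p 0.00766), a call that was lost when either HHH or general replicate 3 of that batch was left out, and batch 1 alone gave 0.07 (edgeR adjusted p 0.936). In the fit to both batches it passed at under 1.5-fold when HHH batch 1 replicate 3 was left out (edgeR adjusted p 0.016) or general batch 1 replicate 1 (edgeR adjusted p 0.0429).

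DPPA4 had 584 and 591 CPM in the general libraries of batch 1, and 564 and 510 CPM in HHH. In batch 2 it had 570, 511 and 584 CPM in general and 695, 660 and 820 CPM in HHH. The HHH libraries were thus below both general libraries in batch 1 and above all general libraries in batch 2. The means were 568 ± 32.8 CPM in general libraries against 650 ± 120 CPM in HHH (SD, n = 5 each), a difference of 0.18 on the log2 scale with SE 0.10 (edgeR adjusted p 0.348). Batch 1 gave -0.14 (edgeR adjusted p 0.686) and batch 2 gave 0.38 (edgeR adjusted p 0.0354, under 1.5-fold). The difference between the batches was 0.52 (SE 0.16), with an edgeR adjusted p of 0.132 for the interaction, and of 0.0233 by DESeq2. Processed pseudogenes of DPPA2, DPPA4, KLF4 and NLRP7 were counted under identifiers of their own, and fragments that fit a gene and its copy equally make these genes less certain.

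ZFP42, known as REX1, is a YY1-related zinc finger protein and a long-used marker of undifferentiated cells. The gene (ENSG00000179059) lies on chromosome 4, 187995771 to 188005046 on the plus strand. Its level was set apart by batch and not by population. In batch 1 it had 382 and 393 CPM in general and 421 and 325 CPM in HHH, and in batch 2 it had 109, 122 and 100 CPM in general and 117, 114 and 147 CPM in HHH. The populations overlapped in both batches. The log2 fold change was 0.09, with SE 0.10 (edgeR adjusted p 0.654), and on the deposited log2 values it was -0.06. The batch means of ZFP42 were 380 and 118 CPM, in the direction opposite to those of PRDM14, 32.2 and 70.6 CPM. The labels do not say what differed between the batches.

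NLRP7, a maternal effect gene of oocytes and early embryos, was low, at 0.279 to 1.82 CPM. It is encoded on chromosome 19, 54923509 to 54966312 on the minus strand (ENSG00000167634), across NLRP2 on the opposite strand and with no shared exon bases. The general libraries had 0.521 and 0.721 CPM in batch 1 and 1.55, 1.09 and 1.00 CPM in batch 2. The HHH libraries had 0.279 and 0.389 CPM in batch 1 and 1.82, 1.59 and 1.10 CPM in batch 2. HHH was below general in batch 1 and overlapped it in batch 2. The log2 fold change was -0.04 over both batches (SE 0.24, edgeR adjusted p 0.951), -0.90 in batch 1 (edgeR adjusted p 0.409) and 0.31 in batch 2 (edgeR adjusted p 0.395). The interaction had an edgeR adjusted p of 0.186.

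**Figure D3:**
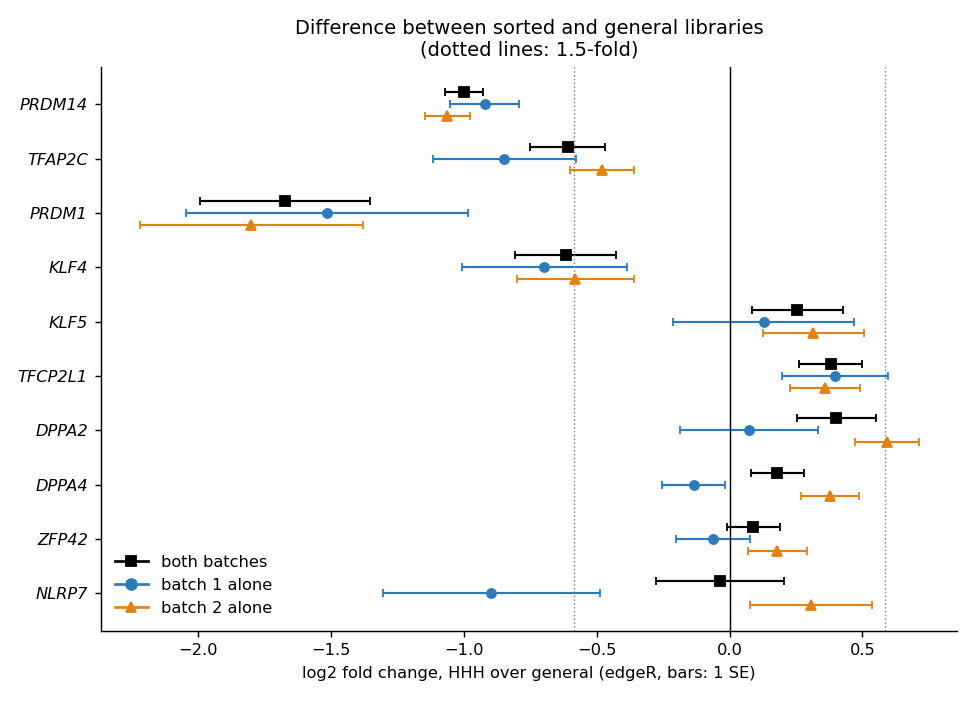
Log2 fold change of HHH over general (horizontal axis) with 1 SE from edgeR for each member, over both batches (black squares), in batch 1 alone (blue circles) and in batch 2 alone (orange triangles). PRDM14, TFAP2C, PRDM1 and KLF4 are below 0 in all 3 fits, and DPPA4, NLRP7 and ZFP42 are on opposite sides of 0 in the batches.

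By batch, 1 member was called in batch 1 alone, PRDM14, against 0.573% of all genes. In batch 2 alone 3 members were called, PRDM14 and PRDM1 as lower and DPPA2 as higher, against 4.90% of all genes. For a difference between the batches of over 1.5-fold, edgeR called 0 members and DESeq2 0, and 0.773% of all genes by edgeR. At an unadjusted p under 0.05, 2 of 10 members, DPPA4 and NLRP7, passed in edgeR's test of that difference, against 18.9% of all genes, so the members' share was near that of all genes.

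The genes whose levels followed the called members most closely, among 15664 genes with a symbol and a mean of at least 1 CPM, were taken by Pearson's r of log2 CPM with batch means removed, over the 10 libraries. For PRDM14 these were DHRS3, a retinaldehyde reductase (r = 0.995), DGAT2, an enzyme of triglyceride synthesis (r = 0.995), and C1orf21 (r = 0.993). TFAP2C was followed by GAB1, a signalling adaptor (r = 0.972), FILIP1 (r = 0.968) and TIMELESS, of the replication fork (r = 0.960). PRDM1 was followed by KCNH6, a potassium channel (r = 0.978), and the collagens COL12A1 (r = 0.965) and COL21A1 (r = 0.956). These values include the difference between the populations, and the libraries' scaling is shared by all genes.

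Other germline genes, from a list of 29 without the members, held 1 further called gene. Of 18 tested, 0 were called higher and 1 was called lower, and the median log2 fold change was -0.09. The gene called was DAZL, an RNA binding protein of germ cells, with 15.9 ± 3.4 CPM in general libraries against 4.49 ± 1.38 CPM in HHH (SD, n = 5 each). It changed by -1.83 on the log2 scale (SE 0.19, edgeR adjusted p 3.92e-05). ALPL, tissue non-specific alkaline phosphatase, and PDPN, podoplanin, passed as lower at under 1.5-fold, with log2 fold changes of -0.48 and -0.38. NANOG, the pluripotency factor that germ cells also use, passed as higher at 0.44. SOX17, with means of 0.0201 and 0.0229 CPM in general and HHH, and DDX4, with 0.00642 and 0.0359 CPM, were under the floor. NANOS3 had 0.122 and 0.111 CPM and TCL1A 0.0533 and 0.0775 CPM, and these 4 genes were too low to be tested.

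Naive-state genes other than the members numbered 28, of which 16 could be tested, with a median log2 fold change of -0.02. ALPG, a placental type alkaline phosphatase, was called lower, from 2.47 ± 1.24 to 0.590 ± 0.226 CPM (SD, n = 5 each), a difference of -2.01 on the log2 scale with SE 0.19 (edgeR adjusted p 1.35e-05). NODAL, a TGF beta family ligand, was called higher at a log2 fold change of 0.79, and DUSP5, a phosphatase of ERK, at 0.68. The study also reports both as raised in HHH, and does not call them naive-state genes. KLF17, TBX3, ARGFX and DNMT3L, used as markers of naive human cells, had means under 0.1 CPM in both populations and were not tested. The same held for KLF2, also on the list.

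Of genes of the primed and formative epiblast, 21 were tested, 3 were called higher and 1 lower, with a median log2 fold change of 0.02. OTX2 was the one called lower, at -1.47, and those higher were DUSP6 at 0.94, ETV5 at 0.72 and THY1 at 0.61. Markers of human embryonic stem cell identity were above 1 CPM in 12 of 12 cases and 0 were called. EPCAM, whose protein was used for the sort, passed at 0.42, and CD9 had 0.29 (edgeR adjusted p 0.195). NANOG, given above, was the other that passed as higher, and PODXL, at -0.40 (edgeR adjusted p 0.0306), and SOX2, at -0.26 (edgeR adjusted p 0.0375), passed as lower, all at under 1.5-fold.

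**Figure D4:**
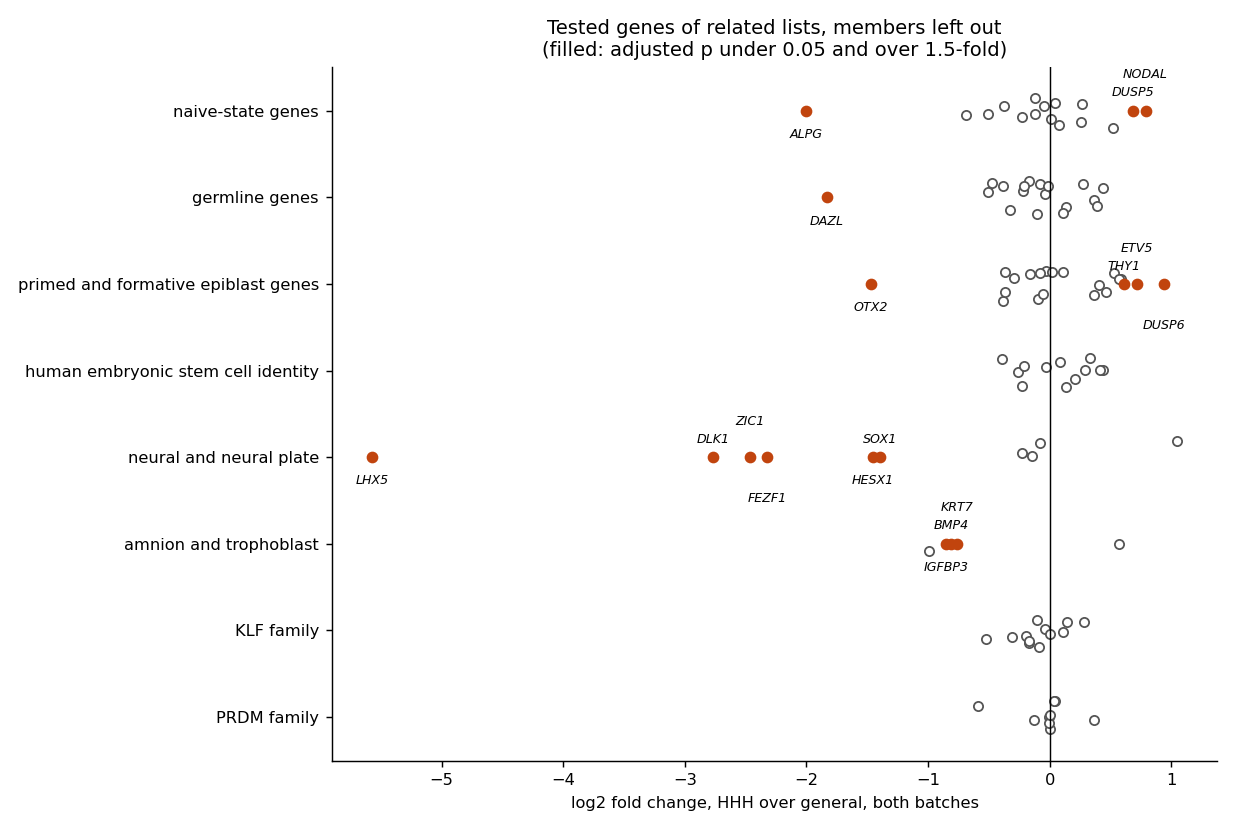
Log2 fold change of HHH over general over both batches (horizontal axis) for each tested gene of 8 lists, members left out, with genes called at adjusted p under 0.05 and over 1.5-fold filled in red and named. DAZL, at -1.83, and ALPG, at -2.01, are the genes called lower in the germline and naive-state lists, and no gene of the KLF and PRDM families beyond the members is called.

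In the families of the members, no other gene was called. In the PRDM family 11 genes were tested, and the members PRDM1 and PRDM14 were the 2 called; the median of the other 9 was 0.00. In the KLF family 14 were tested and 0 called, although KLF3 passed as higher (log2 fold change 0.29) and KLF15 as lower (-0.52) at under 1.5-fold. TFAP2C was the AP-2 gene above 1 CPM. TFAP2E had a log2 fold change of -0.73 (edgeR adjusted p 0.194), and TFAP2A, TFAP2B and TFAP2D were too low to test. In the CP2 and grainyhead family 6 were tested with 0 called, and in the NLRP family 6 with 0 called, while NLRP1 passed as lower at under 1.5-fold (-0.50, edgeR adjusted p 0.00572). YY1, the relative of ZFP42, had -0.01 (edgeR adjusted p 0.98). DPPA3 and DPPA5, with mean levels of 0.336 and 0.493 RPKM, did not pass.

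Markers of other cell types moved with the same comparison. Of neural and neural plate genes 10 of 18 were tested, with a median log2 fold change of -1.42, and 6 were called lower in HHH. Among these 6 were LHX5 (log2 fold change -5.57), FEZF1 (-2.32), HESX1 (-1.45) and ZIC1 (-2.46). LHX5, ZIC1 and SOX1, also called, had HHH means of 0.145, 0.148 and 0.149 CPM. They passed the filter on low counts mainly through the general libraries, where they were higher. DLK1, the other gene called lower, had means of 1.44 CPM in general libraries and 0.206 CPM in HHH. The count of 6 and the median cover tested genes only and carry that limit. SIX6 had a higher mean in HHH, 0.339 ± 0.143 CPM in general libraries against 0.711 ± 0.363 CPM in HHH (SD, n = 5 each). That difference, 1.05 on the log2 scale, missed the threshold (edgeR adjusted p 0.0662). FEZF2 had 3.11 and 5.22 CPM in the HHH libraries of batch 1 and at most 2 counts in each of the other 8 libraries. It was tested in batch 1 alone, where it passed as higher (edgeR adjusted p 0.000486). SIX3 and RAX were tested in batch 2 alone, with log2 fold changes of -4.17 and -0.96. The summed level of the 18 genes was 257 to 357 CPM in general and 153 to 264 CPM in HHH, most of it from NES (222 and 193 CPM). PAX6, the defining marker of neuroectoderm, had 0.960 and 0.862 CPM and did not pass (edgeR adjusted p 0.665), and NR2F1 and EMX2 were under the floor in both populations, with means of 0.00347 and 0.0222 CPM in general libraries and 0 in HHH. Of amnion and trophoblast genes 5 of 16 were tested and 3 were called lower, IGFBP3 (-0.85), BMP4 (-0.81) and KRT7 (-0.76), and GABRP passed as higher (0.57). The summed level of that list was 15.7 to 24.3 CPM in general and 12.5 to 16.9 CPM in HHH, and GATA3 and CDX2 had means under 0.1 CPM in both. Of mesoderm genes 4 of 12 were tested and of endoderm genes 1 of 9, with 0 called in each. The part of these cells in the lower PRDM14, TFAP2C and PRDM1 of HHH was not tested.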

How the data were processed

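RNA was sequenced from 10 libraries (TruSeq RNA). The fragment counts per Ensembl gene were deposited by the authors as raw whole numbers. The authors also deposited log2 values, a score after TMM scaling and RPKM conversion, from which a term for batch had been taken out (batch means equal within 9.2e-14 over 27641 genes), so these served only as an alternative. The submitters' processing notes name CASAVA 1.8.2, R 3.2.2, limma 3.26.9 and GRCh37, and the aligner, counter and annotation are not given in the sources used here. The study's methods name WA09 as its cells and the labels HES9, and the design text mentions a protein kinase C inhibitor that no label of these libraries carries. Both points are unresolved. No label says that replicates came from separate cultures, so p-values measure the spread between these libraries, which may be technical.

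Identifiers were matched to GENCODE 44 (GRCh38), from which coordinates and exon lengths were taken; 49395 of 55841 matched, or 88.5%. Genes were kept by filterByExpr (minimum count 10) and scaled by TMM (factors 0.832 to 1.18). The difference between HHH and general was fitted in edgeR 4.0.16 (R 4.3.3) with batch as a term and tested by quasi-likelihood, with p-values two-sided and adjusted by Benjamini-Hochberg across the tested genes, and the interaction with batch was tested likewise. The biological coefficient of variation was 0.128 in common. A single count equalled 0.0153 to 0.0229 CPM. Libraries of 1 population and batch differed by 6.35 to 52.9 times the chi-square expected of sampling noise per degree of freedom. Ratios used log2 of counts plus 0.5. Scripts were tested on simulated data.

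The members and the gene lists were chosen with earlier results of these data known. After the fits, 1 gene was taken out of the lists and is not reported here. All members were named, with up to 4 called genes per list by smallest adjusted p and, for each called member, the 3 genes most like it; other list genes were named after their values were seen. Within batches, 4 pairs of libraries carry the same replicate number. The correlations of their deviations from group means were 0.113 (batch 1, replicate 2) and 0.239, 0.143 and 0.113 (batch 2, replicates 1, 2 and 3), all over 0.1, so that pairing by number was taken as an alternative that is printed where it changes a call. With genes of at least 1 CPM the last was 0.0871. General batch 1 replicate 1 and HHH batch 1 replicate 3 have no partner by number, so they add nothing to the difference under that pairing. Other alternatives were no batch term, RLE, upper quartile or no scaling factor, other filters, DESeq2 1.42.0, limma 3.58.1 with voom or on the deposited values, small RNAs and mitochondrial genes left out, other thresholds, and each library left out. Removal of a GC trend (a spline with 5 degrees of freedom), alone or together with the block, and median centring of the deposited values were added after seeing the data.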

Additional observations from a re-analysis of the deposited data

Results flagged for a closer look

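DPPA4 gave both flags. The difference in DPPA4 between HHH and general had opposite signs in the batches. The 2 HHH libraries of batch 1 were below the general mean of their batch and the 3 of batch 2 above theirs. Batch 1 by itself gave -0.136 on the log2 scale, which did not pass (edgeR adjusted p 0.686). The difference between the batches, 0.515 on the log2 scale, did not pass edgeR's interaction test (adjusted p 0.132). Among the 5 general libraries, batch 2 replicate 2 had the lowest DPPA4, 511 CPM, and stood far from the other 4, which had 570 to 591 CPM. Of 20 groups of 5 libraries tested in this way 1 gave such a value, and chance flags about 1 in 20 groups.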

How the results depend on the processing

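Over both batches 3 members were called, and 1 (PRDM1) without a batch term, when the log2 fold change of PRDM14 was -1.02 (edgeR adjusted p 0.255). With the replicate block 4 were called, DPPA2 in addition at 0.597 (edgeR adjusted p 0.0139), and the block changed no other call. With the GC trend removed as well, DPPA2 was at 0.575 (edgeR adjusted p 0.0086), under 1.5-fold, and 3 were called. DESeq2 and the fit with no filter also called 4, with KLF4 at -0.616 and -0.607. With at least 1 CPM in 5 libraries 2 were called and PRDM1 was not tested, and 2 were called over 2-fold or on the centred deposited values. With each library left out the number was 2 to 4. Batch 1 alone gave 0 to 2 calls and batch 2 alone 2 to 3. PRDM14 and PRDM1 were called with any library left out of the fit to both batches. Of 239 values of the members under alternatives, 219 kept their direction and call. The sign changed for ZFP42 on the deposited log2 values (-0.056) and for NLRP7 with no batch term (0.103), the replicate block (0.043), voom (0.038), the GC trend removed with the replicate block (0.074), and libraries left out (-0.204 to 0.114). The cause of these changes was not tested. With each library left out, the log2 difference of KLF4 over KLF5 ran from -1.02 to -0.782 and that of PRDM14 over ZFP42 from -1.15 to -1.01, both with exact permutation adjusted p from 0.0278 to 0.0833. PRDM14 over TFAP2C ran from -0.561 to -0.263 (0.0278 to 0.271) and PRDM1 over PRDM14 from -0.736 to -0.397 (0.0417 to 0.25). Depth limits PRDM1, whose HHH libraries had 4 to 8 counts.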
